A study of Mus musculus with 28 samples.

Results

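The very long genes of this report are 55 protein-coding genes of the mouse whose loci span 602 to 2271 kb. They were taken from the authors' deposited FPKM table by locus length (end minus start of at least 600 kb), by a locus interval that no other entry carries, and by a mean normalized count of at least 50 over the nascent RNA libraries. Names belonging to 24 gene-name prefixes (among them glutamate and GABA receptor subunits, potassium and calcium channels, neurexins, protocadherins and axon guidance genes) and the genes Alk and Dcc were left out by name. The 55 genes are 0.24% of the 22919 genes in the comparison tables and hold 3.27% of the summed mean counts. No measured response entered the rule.

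Nascent RNA was measured by Bru-seq, in which bromouridine added to living cells marks RNA made during the label, and sequencing follows capture of the marked RNA with an antibody. The cultures came from cortex and hippocampus of CD1 mouse embryos at embryonic day 18, pooled over sex-ratio matched embryos for each replicate, and their labels give a mixture of neurons, astrocytes and oligodendrocyte precursor cells. All 6 groups received a lentivirus on day in vitro 14, with a control shRNA in the shCtrl arm and a Rai1-directed shRNA in the shRai1 arm, and all were harvested on day 17 after 4 hours of treatment with bromouridine at 2 mM in the last 20 minutes. Within each arm the treatment was water as vehicle, tetrodotoxin (TTX, 1 µM), which blocks sodium channels and silences the network, or bicuculline (BIC, 20 µM), which blocks GABA-A receptors and raises network activity. Each group had 3 libraries, except shCtrl vehicle with 2 (replicates 1 and 2) and shCtrl BIC with 2 (replicates 2 and 3). The values used were the authors' summaries over libraries, and no value per library was used.

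A locus of this length takes RNA polymerase hours to cross, and the great part of it is intron, so that a short pulse of label is spread over the whole gene body wherever polymerases are moving. In brain such genes are known for coding cell adhesion molecules, synaptic scaffolds and receptors, and several lie at common fragile sites, regions that break under replication stress. Bru-seq reads introns as well as exons, which gives long genes high counts.

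Log2 changes are given with their standard errors (SE) and adjusted p-values as listed in the authors' deposited tables, made with DESeq2, unless a sentence says that the value was computed here. A gene is called where the adjusted p is under 0.05, and the words rose and fell are kept for called genes. The depth of single libraries is unknown. The mean normalized count over libraries had a range of 110 to 35252 among the 55 genes with a median of 8062, and 46 of them had a mean of at least 2000. For background, the share of calls is given over the 12333 expressed genes, those whose mean count was 50 or more, and again over the 2031 high-count genes, whose mean count was 2000 or more.

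Properties of the libraries bear on what follows. Rai1 itself, in the authors' deposited tables, was not lower in the libraries labelled shRai1, with log2 differences (and SE) of 0.16 (0.073) in vehicle, −0.12 (0.064) in TTX and 0.03 (0.073) in BIC and adjusted p of 0.357, 1.00 and 1.00, so that the target gene gives no check of that label. All 14 neuron markers and 10 of 12 astrocyte markers reached a mean count of 50, against 6 of 8 for oligodendrocyte precursors, 1 of 8 for myelinating cells (Mbp) and 1 of 10 for microglia (Cx3cr1), and no marker was at a mean of 0. The 6 expressed oligodendrocyte precursor markers had medians that differed by arm. These were −0.60 under TTX in shCtrl (4 fell, 0 rose), 0.53 under TTX in shRai1 (5 rose, 0 fell) and −0.79 for shRai1 against shCtrl in vehicle (4 lower, 0 higher). For shRai1 against shCtrl the median was 0.44 in TTX (1 higher, 0 lower) and −0.56 in BIC (1 lower, 0 higher). Under BIC it was −0.20 in shCtrl (1 fell, 0 rose) and 0.15 in shRai1 (0 called). Their part in the results on the very long genes was not tested.

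Length among the 55 genes had a median of 871 kb, and 16 genes reached 1000 kb. Both loci of more than 2000 kb code for neuronal membrane proteins. Ptprd, a presynaptic receptor-type tyrosine phosphatase, spans 2271 kb on chromosome 4 (75587141 to 77857799), and Cntnap2, a neurexin-family protein that organises potassium channels on axons, spans 2241 kb on chromosome 6 (45010060 to 47251370). These and all later locus coordinates are those of the deposited FPKM table, with the start counted from 1, in mm9, the build named in the submitters' processing notes. The next in length were Magi2 (1478 kb), Il1rapl1 (1368 kb), Dlg2 (1358 kb), Lrrc4c (1313 kb), Csmd3 (1211 kb), Nkain2 (1201 kb), Opcml (1134 kb) and Frmpd4 (1106 kb), of which Magi2 and Dlg2 code for scaffolds of the synapse. The 55 loci lay on 18 chromosomes, 10 of them on chromosome 1 and 4 on the X. Just above the length minimum stood Mast4 (602 kb), Magi1 (608 kb) and Lsamp (613 kb), and just below it Hpse2 (599.8 kb), Sorcs3 (599.5 kb) and Dscam (579 kb).

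Transcription of these genes differed far more than their length. Per kb of locus, the mean normalized count ran from 0.122 for Spag16, a protein of the axoneme of cilia, to 50.1 for Nav2, neuron navigator 2, a protein that binds microtubules, with a median of 8.08. Below Nav2 came Tmem132d at 42.5, the delta-catenin gene Ctnnd2 at 27.7, Dlg2 at 25.9 and the latrophilin gene Lphn3 at 24.9 counts per kb. At the lower end, Agbl1 had 0.125, Lama2 0.263 and Sugct 0.304 counts per kb. Spag16, Agbl1 and Lama2 had mean counts under 200, and none of them was called in any response or knockdown comparison. The pooled FPKM in shCtrl vehicle, which the authors give as 1 value with an interval per condition, ran from 0.0472 for Agbl1 to 45.2 for Nkain3, and each of the 54 pairs of neighbours in that order had overlapping intervals.

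In shCtrl cultures silenced with TTX, 18 of the 55 very long genes fell and 5 rose, with a median log2 change of −0.11. Over the expressed genes the share lower was 18.2% and the share higher 13.8%, and over the high-count genes these shares were 30.1% and 15.1%. Among the 46 very long genes of high count, 34.8% were lower and 8.70% higher. The falls were led by Hdac9, a class IIa histone deacetylase, at −1.40 (SE 0.202, adjusted p 1.04e-10), and by Cntnap5b, a relative of Cntnap2, at −1.38 (SE 0.209, adjusted p 8.77e-10). Less RNA per cell and fewer cells of a type that makes it cannot be told apart in these mixed cultures.

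With bicuculline in the same arm, 23 of the 55 rose and 9 fell, with a median log2 change of 0.23. The background was 21.5% higher and 22.1% lower over expressed genes, and 42.4% higher and 21.2% lower over those of high count. Among the 46 very long genes of high count, 45.7% were higher and 17.4% lower, so that the share of rises lay close to that of other genes of high count. Lphn3 stood first at 1.36 (SE 0.200, adjusted p 1.81e-10), followed by Lrrc4c at 1.14 (SE 0.138, adjusted p 3.88e-15). The largest fall was that of Rarb, the retinoic acid receptor beta, at −1.43 (SE 0.121, adjusted p 3.48e-30). The plot of gene by gene changes under both drugs shows these values side by side.

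Markers of neurons and astrocytes were read in the same comparisons. The 14 neuron markers had a median log2 change of −0.13 under TTX in shCtrl (2 rose, 5 fell) and 0.24 under BIC (7 rose, 4 fell), and their summed pooled FPKM was 923 in vehicle, 772 in TTX and 1144 in BIC, as the authors give the values. In shRai1 the neuron markers had medians of −0.01 under TTX (none rose, 4 fell) and 0.37 under BIC (7 rose, 4 fell). The 10 expressed astrocyte markers had medians in shCtrl of −0.23 (5 fell, none rose) and −0.21 (1 rose, 4 fell), and all 12 of that list had summed FPKM of 370.4, 307 and 291. In shRai1 these astrocyte markers had medians of 0.00 under TTX (2 rose, 1 fell) and −0.07 under BIC (2 rose, 2 fell), and for shRai1 against shCtrl in vehicle −0.26 (2 lower, none higher). The part of either cell type in the changes of the very long genes, or in the differences between the arms, was not tested.

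**Figure D1:**
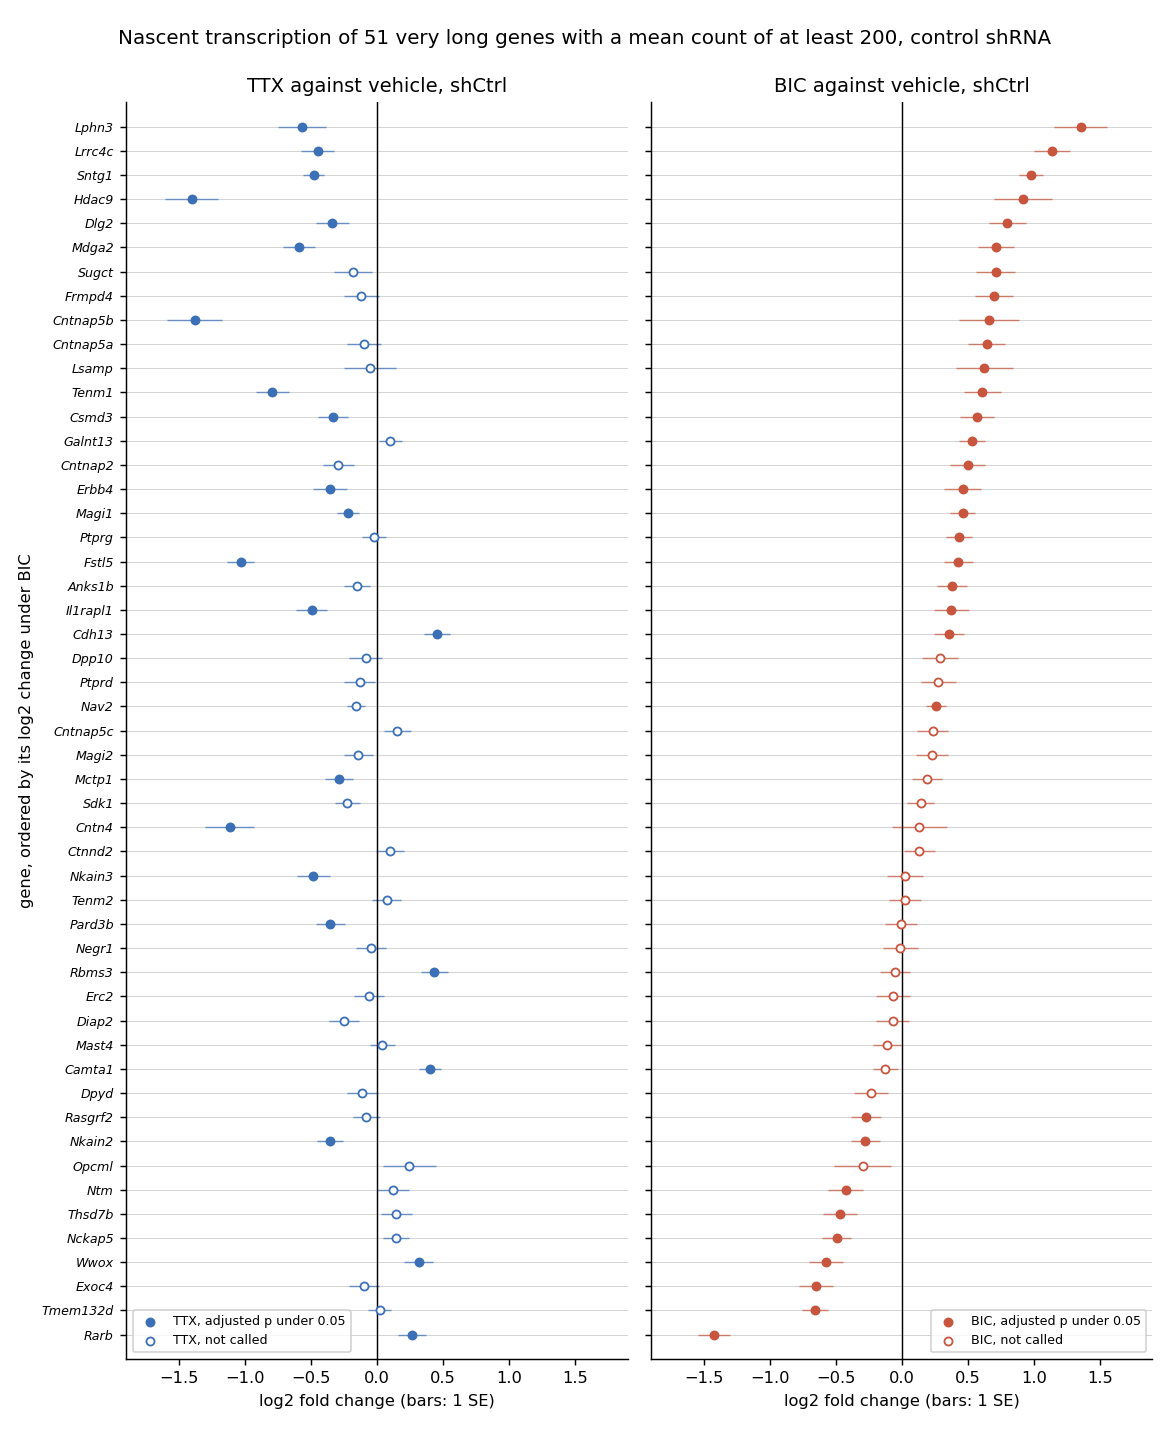
Log2 fold change of the 51 genes with a mean count of at least 200 in shCtrl cultures, TTX against vehicle on the left and BIC against vehicle on the right, with bars of 1 SE and filled points for an adjusted p under 0.05. The genes are ordered by their BIC change, from Lphn3 at 1.36 to Rarb at −1.43, and both comparisons use the same 2 vehicle libraries.

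The comparisons with TTX and with BIC share their vehicle libraries, so their values are given side by side only. In shCtrl, 13 genes were lower under TTX and higher under BIC: Il1rapl1, Dlg2, Lrrc4c, Csmd3, Erbb4, Sntg1, Hdac9, Lphn3, Mdga2, Tenm1, Cntnap5b, Fstl5 and Magi1. Of expressed genes 7.90% and of high-count genes 18.2% were called in this way. Wwox and Rarb were higher under TTX and lower under BIC, Cdh13 was higher under both and Nkain2 lower under both in the count tables. The pooled FPKM of these 2 genes went the other way under both drugs, with log2 ratios to vehicle of −0.05 (TTX) and −0.79 (BIC) for Cdh13 and of 0.32 and 0.42 for Nkain2. With log2 changes centred on the median of all expressed genes, the calls of Magi1 under TTX and of Nkain2 and Rasgrf2 under BIC were lost, and Cntnap5c, Dpp10 and Ptprd gained a call under BIC. A further 17 genes were called under neither drug, among them the longest, Ptprd, at −0.13 under TTX (SE 0.117, adjusted p 0.460) and 0.28 under BIC (SE 0.131, adjusted p 0.0873).

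In the account by role that follows, changes are those of the count tables in shCtrl unless the arm or measure is named. For some called genes (4 under TTX, 8 under BIC) the pooled FPKM went the other way. These are named further below, where that measure is described. Immunoglobulin-domain adhesion proteins formed the largest group, with 8 members that bind partners on facing cells. Under TTX 3 of the 8 fell and none rose, and under BIC 3 rose and 1 fell. Over high-count genes 30.1% fell and 15.1% rose under TTX, and 42.4% rose and 21.2% fell under BIC. Over expressed genes 18.2% fell and 13.8% rose under TTX, and 21.5% rose and 22.1% fell under BIC. These shares are the background for each list that follows, and no list was tested against them. Mdga2, a membrane-anchored protein that binds neuroligins and keeps them from neurexins, fell by 0.59 under TTX (SE 0.122, adjusted p 1.6e-05) and rose by 0.71 under BIC (SE 0.136, adjusted p 1.24e-06). Il1rapl1, a synaptic organiser of the interleukin-1 receptor family, fell by 0.50 under TTX (SE 0.118, adjusted p 0.000255) and rose by 0.38 under BIC (SE 0.132, adjusted p 0.0156). Contactin 4 (Cntn4) fell by 1.12 under TTX (SE 0.189, adjusted p 5.9e-08) and stood at 0.13 under BIC (SE 0.207, adjusted p 0.684).

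Of the IgLON family, which codes for membrane-anchored adhesion proteins of neurons, 4 genes are among the very long ones, and their calls differed. Under BIC in the authors' deposited table Lsamp rose by 0.63 (SE 0.217, adjusted p 0.0139), Ntm fell by 0.43 (SE 0.133, adjusted p 0.00552), and Opcml and Negr1 were not called, at −0.30 (SE 0.219) and −0.01 (SE 0.130). None of the 4 was called under TTX, with log2 changes of −0.05 to 0.24. Ntm and Opcml are neighbours on chromosome 9, with Ntm from 28803549 to 29770714 and Opcml from 27598854 to 28732633. Among the 24 shorter or left-out genes of the immunoglobulin-domain list, 10 rose and 6 fell under TTX, and 5 rose and 9 fell under BIC.

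Contactin-associated proteins counted 4 very long genes, of which 1 fell under TTX and 3 rose under BIC. The shares falling under TTX were 18.2% of expressed and 30.1% of high-count genes, and those rising under BIC 21.5% and 42.4%. Cntnap2 was at −0.29 under TTX (SE 0.119, adjusted p 0.0529) and rose by 0.50 under BIC (SE 0.133, adjusted p 0.000874). Cntnap5a and Cntnap5b rose by 0.64 (SE 0.141) and 0.66 (SE 0.227) under BIC, adjusted p 3.08e-05 and 0.0126, while under TTX Cntnap5a was at −0.10 (SE 0.127, adjusted p 0.639) and Cntnap5b fell by 1.38. Cntnap5c was called under neither drug in shCtrl. The 3 other genes of this list gave 1 rise and 1 fall under TTX, and 1 rise and 2 falls under BIC.

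Teneurins and latrophilins are transmembrane partners that bind each other across the synapse. Tenm1, on the X chromosome from 39885570 to 40627961, fell by 0.79 under TTX (SE 0.124, adjusted p 3.29e-09) and rose by 0.61 under BIC (SE 0.137, adjusted p 5.3e-05). Its relative Tenm2 stood at 0.07 (SE 0.108, adjusted p 0.691) and 0.02 (SE 0.121, adjusted p 0.920). Lphn3 (Adgrl3 in current nomenclature), on chromosome 5 from 81450618 to 82224755, fell by 0.57 under TTX (SE 0.182, adjusted p 0.00902) and had the largest rise under BIC. Lrrc4c, the netrin-G ligand of postsynaptic membranes, on chromosome 2 from 96158326 to 97471821, fell by 0.45 under TTX (SE 0.124, adjusted p 0.00193). Csmd3, a membrane protein with CUB and sushi domains, fell by 0.33 (SE 0.115, adjusted p 0.0169) and rose by 0.57 under BIC (SE 0.128, adjusted p 5.06e-05).

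In the cadherin and catenin list, T-cadherin (Cdh13), which is held in the membrane by a lipid anchor, rose by 0.46 under TTX (SE 0.099, adjusted p 3.79e-05), the largest rise of the 55 under that drug, and by 0.36 under BIC (SE 0.111, adjusted p 0.00508). Its pooled FPKM was not higher under either drug, at 22 in vehicle, 21.2 in TTX and 12.7 in BIC. Ctnnd2 was called under neither. The receptor genes were Ptprd, Ptprg and Erbb4, the neuregulin receptor. Erbb4 fell by 0.36 under TTX (SE 0.126, adjusted p 0.021) and rose by 0.46 under BIC (SE 0.140, adjusted p 0.00415), and Ptprg rose by 0.43 under BIC (SE 0.0996, adjusted p 9.13e-05) and was not called under TTX.

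Scaffolds under the synaptic membrane counted 6 very long genes, 3 of which fell under TTX and 4 of which rose under BIC, with none called the other way. Beside these counts, 30.1% of high-count genes fell under TTX and 42.4% rose under BIC (18.2% and 21.5% of expressed genes). With 6 genes, a difference from these shares was not tested. Sntg1, a syntrophin that links membrane proteins to the dystrophin complex, fell by 0.48 under TTX (SE 0.081, adjusted p 5.65e-08) and rose by 0.98 under BIC (SE 0.090, adjusted p 1.08e-25). Dlg2, which codes for PSD-93, had the highest mean count of the 55, fell by 0.34 (SE 0.123, adjusted p 0.026) and rose by 0.80 (SE 0.137, adjusted p 6.13e-08). Magi1 fell by 0.22 (SE 0.085, adjusted p 0.0388) and rose by 0.46 (SE 0.095, adjusted p 9.83e-06), and Anks1b, a postsynaptic ankyrin-repeat protein, rose by 0.38 under BIC (SE 0.110, adjusted p 0.00252). Magi2 and Erc2, a protein of the presynaptic active zone, were called under neither drug. Of the 31 other genes of this list, 11 fell and 5 rose under TTX, and 15 rose and 5 fell under BIC.

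Among genes tied to channels and pumps, 2 of 3 fell under TTX and none rose under BIC in shCtrl. Over expressed genes 18.2% fell under TTX and 21.5% rose under BIC, and over high-count genes 30.1% and 42.4%. Nkain2 and Nkain3, which code for proteins that bind the sodium pump, fell under TTX by 0.36 (SE 0.096, adjusted p 0.0014) and 0.48 (SE 0.123, adjusted p 0.000711). Under BIC Nkain2 fell by 0.28 (SE 0.108, adjusted p 0.0316), Nkain3 stood at 0.02 (SE 0.137, adjusted p 0.923), and Dpp10, an accessory subunit of A-type potassium channels, at 0.29 (SE 0.137, adjusted p 0.0907). In shRai1 both of the latter rose under BIC, Nkain3 by 0.29 (SE 0.109, adjusted p 0.0203) and Dpp10 by 0.39 (SE 0.109, adjusted p 0.00108). The 38 other genes of that list gave 20 rises and 7 falls under BIC in shCtrl. No test of the difference between the lists was made.

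Signalling, cytoskeletal, trafficking and glycan genes numbered 9. Under BIC, Exoc4, a subunit of the exocyst that tethers secretory vesicles, fell by 0.65 (SE 0.128, adjusted p 3.4e-06) and Rasgrf2, a calcium-regulated activator of Ras, fell by 0.27 (SE 0.113, adjusted p 0.0488). Frmpd4, a scaffold that binds PSD-95, rose by 0.70 (SE 0.146, adjusted p 1.29e-05), Nav2 by 0.26 (SE 0.076, adjusted p 0.00254) and Galnt13, an enzyme that starts O-linked glycans, by 0.53 (SE 0.101, adjusted p 1.27e-06). Under TTX in shCtrl the polarity gene Pard3b alone fell among these 3 lists, by 0.35 (SE 0.108, adjusted p 0.00603). In shRai1 it was not called, at −0.10 (SE 0.095, adjusted p 0.460), while Nav2 fell by 0.56 (SE 0.059, adjusted p 2.18e-19) and Rasgrf2 by 0.35 (SE 0.089, adjusted p 0.000499).

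The list of regulators of transcription and RNA held 3 very long genes, Hdac9, Rbms3 and Camta1, with the largest fall under TTX and 2 of its 5 rises in shCtrl. Rarb, a nuclear receptor gene and another of those 5, stands on none of the lists and is described after them. Hdac9, on chromosome 12 from 34732447 to 35601767, fell under TTX and rose by 0.92 under BIC (SE 0.221, adjusted p 0.000187). Its pooled FPKM in shCtrl, as the authors give it, was 5.67 in TTX (interval 3.97 to 7.37), 15.6 in vehicle (11.6 to 19.5) and 21.3 in BIC (16.1 to 26.5). The TTX interval lay below both others, and those of vehicle and BIC overlapped. Rbms3, an RNA-binding protein, and Camta1, a calmodulin-binding transcription activator, rose under TTX by 0.43 (SE 0.103, adjusted p 0.000236) and 0.40 (SE 0.084, adjusted p 1.75e-05), and neither was called under BIC in shCtrl.

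Rarb, on chromosome 14 from 17263354 to 17914845, rose by 0.27 under TTX (SE 0.107, adjusted p 0.0481) and gave the strongest fall of the 55 under BIC. It is a nuclear receptor that activates genes when retinoic acid is bound. Wwox, an oxidoreductase gene at a common fragile site, moved the same way, with a rise of 0.32 under TTX (SE 0.112, adjusted p 0.0213) and a fall of 0.57 under BIC (SE 0.127, adjusted p 4.03e-05). Tmem132d, Nckap5 and Thsd7b fell under BIC by 0.66 (SE 0.098), 0.50 (SE 0.111) and 0.47 (SE 0.132), with adjusted p of 3.64e-10, 5.15e-05 and 0.00168, and were not called under TTX. Sugct, which codes for a mitochondrial CoA-transferase, rose by 0.71 under BIC (SE 0.151, adjusted p 1.81e-05) at a mean count of 255.

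Fstl5, a secreted follistatin-like protein on chromosome 3 from 75878483 to 76513927, fell by 1.04 under TTX (SE 0.099, adjusted p 1.65e-23), the smallest adjusted p of the 55 in that comparison, and rose by 0.43 under BIC (SE 0.110, adjusted p 0.000557). Mctp1, a membrane protein with calcium-binding C2 domains, fell by 0.29 under TTX (SE 0.105, adjusted p 0.0277). On the list of common fragile site genes stood 10 of the 55 (Cntnap2, Magi2, Il1rapl1, Dlg2, Csmd3, Sdk1, Wwox, Dpyd, Ptprg and Lsamp). Of those not described above, Sdk1 was at −0.22 under TTX (SE 0.094, adjusted p 0.0608) and 0.14 under BIC (SE 0.105, adjusted p 0.321), and Dpyd, which codes for an enzyme of pyrimidine breakdown, at −0.11 (SE 0.115, adjusted p 0.547) and −0.24 (SE 0.129, adjusted p 0.155).

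Promoter sequence was read for the genes at the ends of these ranges, since their changes were the largest, from a RefSeq table on GRCm38.p6. That build differs from mm9, so its coordinates are not those of the loci above. Whether a start in the RefSeq table is the outer end of the locus measured here, or lies inside it, was not tested. The table matched 45 of the 55 genes; Ptprd, Csmd3, Cdh13, Sntg1, Wwox, Cntnap5a, Tmem132d, Nkain3 and Cntnap5c were among those with no entry. For each gene the 250 bases before the start farthest upstream in that table were searched on both strands for the cAMP response element (TGACGTCA), the AP-1 site (TGANTCA), the EGR site (GCGTGGGCG), the CArG box and the TATA box (TATAAA). The first pair of motifs cannot match the same letters in the same place, and TATA matches on opposite strands can overlap. In the sequences that follow, written 5′ to 3′ on the gene's strand up to the base before the start, capitals mark a match: the TATA box of Hdac9 (chr12:34917096-34917345, minus strand) and the AP-1 site of Lrrc4c (chr2:96317919-96318168, plus strand), while those of Lphn3 (chr5:81020321-81020570, plus strand) and Rarb (chr14:16575477-16575726, minus strand) held none of the 5 motifs.
Hdac9: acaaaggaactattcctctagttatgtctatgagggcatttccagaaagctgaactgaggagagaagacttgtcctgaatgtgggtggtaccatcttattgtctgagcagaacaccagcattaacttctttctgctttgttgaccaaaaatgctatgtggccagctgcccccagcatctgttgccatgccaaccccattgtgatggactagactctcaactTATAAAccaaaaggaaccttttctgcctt
Lrrc4c: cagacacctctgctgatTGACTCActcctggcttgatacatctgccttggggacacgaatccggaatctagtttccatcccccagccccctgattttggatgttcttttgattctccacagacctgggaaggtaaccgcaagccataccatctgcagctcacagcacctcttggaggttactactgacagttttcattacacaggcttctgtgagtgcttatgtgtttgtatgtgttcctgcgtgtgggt
Lphn3: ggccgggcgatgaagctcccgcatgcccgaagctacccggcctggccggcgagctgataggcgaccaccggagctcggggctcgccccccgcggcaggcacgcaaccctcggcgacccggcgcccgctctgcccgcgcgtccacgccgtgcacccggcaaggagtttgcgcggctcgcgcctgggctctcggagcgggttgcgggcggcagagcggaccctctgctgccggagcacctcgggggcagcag
Rarb: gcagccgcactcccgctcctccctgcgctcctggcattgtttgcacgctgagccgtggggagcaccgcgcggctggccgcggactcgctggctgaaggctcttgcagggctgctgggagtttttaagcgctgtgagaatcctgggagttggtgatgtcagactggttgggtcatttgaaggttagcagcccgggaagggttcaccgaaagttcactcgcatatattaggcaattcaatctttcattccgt

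Those 4 windows differ in base composition. Lphn3 and Lrrc4c, the pair with the largest rises under BIC, hold 36 and 4 CG pairs, Rarb holds 16 and Hdac9 holds 0. Over the 45 matched genes the median was 12 CG pairs and 58.8% G or C, beside 6 and 52% over 27025 promoters of the table. An AP-1 match stood in 4 of the 45 (Diap2, Erc2, Lrrc4c and Mctp1), beside 6.85% of all promoters, and a TATA match in 4 (Fstl5, Hdac9, Rbms3 and Tenm1), beside 13.0%. The CArG box stood in Lama2 alone of the 45, beside 1.41% of all. The cAMP response element and the EGR site stood in none of the 45, beside 1.60% and 0.540%. A match is a string of letters, and its use in these cells was not measured.

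The order of the medians by locus length is shown in the plot of length classes. Among expressed genes with an unshared locus, the median log2 change under TTX in shCtrl was 0.02 for loci under 30 kb (5345 genes), −0.04 for 30 to 100 kb (2966 genes), −0.06 for 100 to 300 kb (1214 genes), −0.10 for 300 to 600 kb (261 genes) and −0.11 for the very long genes. Under BIC in shCtrl the same medians were −0.08, 0.00, 0.07, 0.08 and 0.23. Mean count rises over these classes too, from a median of 273 under 30 kb to 3644 at 300 to 600 kb. With the count held to at least 2000, the median under BIC was 0.00 under 30 kb (128 genes), 0.14 at 30 to 100 kb, 0.15 at 100 to 300 kb, 0.14 at 300 to 600 kb (180 genes) and 0.25 for the 46 very long genes, and under TTX it was −0.28, −0.08, −0.06, −0.10 and −0.13. Under TTX at high counts the class under 30 kb thus had the lowest median, while from 100 kb upward the medians still fell with length. In shRai1 the medians of the high-count classes under TTX were −0.21, −0.11, −0.06, −0.14 and −0.20, with the shortest and the longest class close together.

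**Figure D2:**
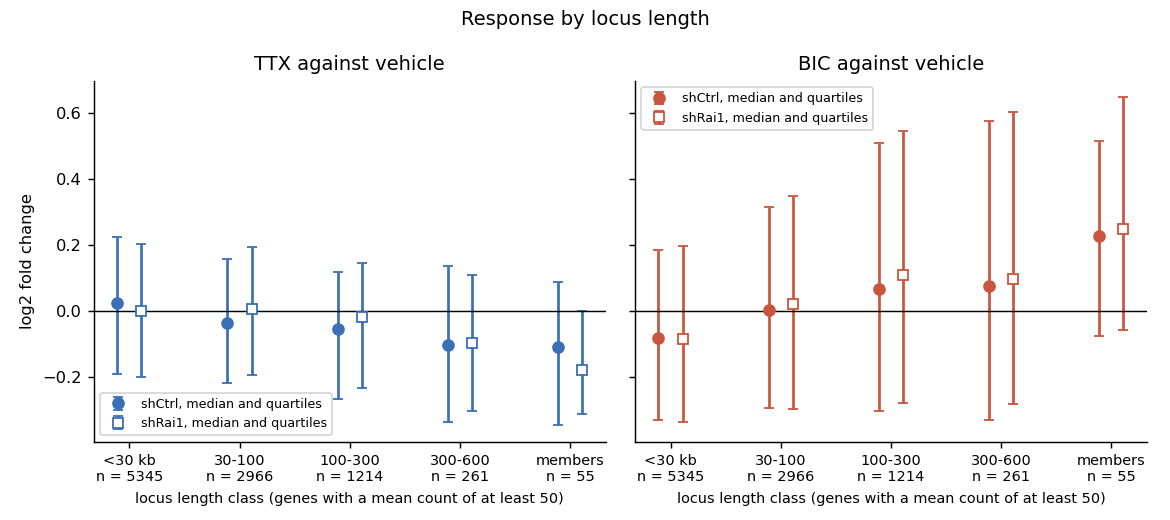
Median log2 fold change (points) with its lower and upper quartile (bars) by class of locus length, TTX on the left and BIC on the right, filled for shCtrl and open for shRai1. The very long genes have medians of −0.11 and −0.18 under TTX and 0.23 and 0.25 under BIC, and the quartile ranges of all classes overlap.

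Within the 55 genes, Spearman's rho between length and log2 change was −0.13 under TTX and 0.10 under BIC in shCtrl, and 0.02 and 0.07 in shRai1, as a description over genes that share the same libraries. The 16 genes of 1000 kb or more had a median of −0.31 under TTX (8 fell, 2 rose) and 0.37 under BIC (9 rose, 1 fell) in shCtrl. The 39 genes of 600 to 1000 kb had medians of −0.06 (10 fell, 3 rose) and 0.14 (14 rose, 8 fell). In shRai1 the medians were −0.22 and 0.37 for the longer genes, and −0.15 and 0.11 for the others. The difference between these length groups was not tested. Their median mean counts were 10479 for the longer genes and 5178 for the others, so that the groups were not matched on count. In shCtrl 18.2% of expressed genes and 30.1% of high-count genes fell under TTX, and 13.8% and 15.1% rose. Under BIC 21.5% and 42.4% rose, and 22.1% and 21.2% fell. The 14 very long genes left out by name had a median of −0.27 under TTX, with 5 falls and no rise, and 0.33 under BIC, with 7 rises and 1 fall. Sorcs3, which missed the length minimum by less than 1 kb, was at −0.50 under TTX (SE 0.178) and 1.75 under BIC (SE 0.196), beyond each of the 55 under BIC.

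Among high-count genes the very long genes had a higher median SE than the shorter classes, at a higher median count. For the TTX change in shCtrl the median SE was 0.0871 under 30 kb, 0.0807 at 30 to 100 kb, 0.0833 at 100 to 300 kb, 0.105 at 300 to 600 kb and 0.113 for the 46 very long genes. For the BIC change it was 0.0970, 0.0901, 0.0934, 0.117 and 0.127. The median count of these classes ran from 2449 under 30 kb to 5969 at 300 to 600 kb, against 9046 for the very long genes, so that the classes were not matched on count. The largest errors of these 46 under TTX were those of Hdac9 (0.202), Opcml (0.200), Lsamp (0.197), Cntn4 (0.189) and Lphn3 (0.182). Under BIC, Opcml had an SE of 0.219 at a mean count of 16705 and Nav2 one of 0.076 at 32614, so that a change of the size called in Nav2 was not detectable in Opcml.

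In the libraries labelled shRai1 the very long genes gave 22 falls and 5 rises under TTX, with a median of −0.18, and 27 rises and 8 falls under BIC, with a median of 0.25. The background under TTX was 20.7% lower and 15.6% higher (36.2% and 11.3% among high-count genes), and under BIC 26.9% higher and 28.8% lower (49.1% and 23.4%). The arms share no library, but the same replicate numbers recur in both, and whether same-numbered cultures came from the same pool of embryos is not given in the sources used here. Under TTX 18 genes were called in both arms in the same direction, which is 78.3% of the calls in shCtrl and 66.7% of those in shRai1, and none was called in opposite directions. Under BIC 29 genes were called the same way, 90.6% of the calls in shCtrl and 82.9% of those in shRai1, again with none opposite. The same shares over all expressed genes were 69.1% and 61.1% under TTX, with 27 called in opposite directions, and 91.6% and 71.8% under BIC, with 0 opposite. Over the 55 genes Pearson's r between arms was 0.87 for TTX and 0.98 for BIC, beside 0.83 and 0.95 over all 12333 genes.

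The largest falls under TTX and the largest changes under BIC in shCtrl were called in shRai1 as well. Hdac9 fell by 1.56 under TTX (SE 0.182, adjusted p 3.78e-16), Cntnap5b by 1.08 (SE 0.188, adjusted p 1.31e-07) and Cntn4 by 0.92 (SE 0.169, adjusted p 7.27e-07). Under BIC Lphn3 rose by 1.52 (SE 0.163, adjusted p 1.33e-19), Lrrc4c by 1.33 (SE 0.109, adjusted p 1.92e-32) and Sntg1 by 1.14 (SE 0.071, adjusted p 1.59e-56). Rarb fell by 1.44 under BIC (SE 0.097, adjusted p 2.26e-48). Of the 5 genes that rose under TTX in shCtrl, Rbms3 (0.28), Wwox (0.33) and Rarb (0.27) rose in shRai1, while Cdh13 (0.07, adjusted p 0.598) and Camta1 (0.00, adjusted p 0.997) were not called, and the largest rise there was that of Galnt13 at 0.37. In this arm 16 genes were lower under TTX and higher under BIC, comparisons that again share their vehicle libraries, beside 10.1% of expressed genes and 23.4% of high-count genes.

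**Figure D3:**
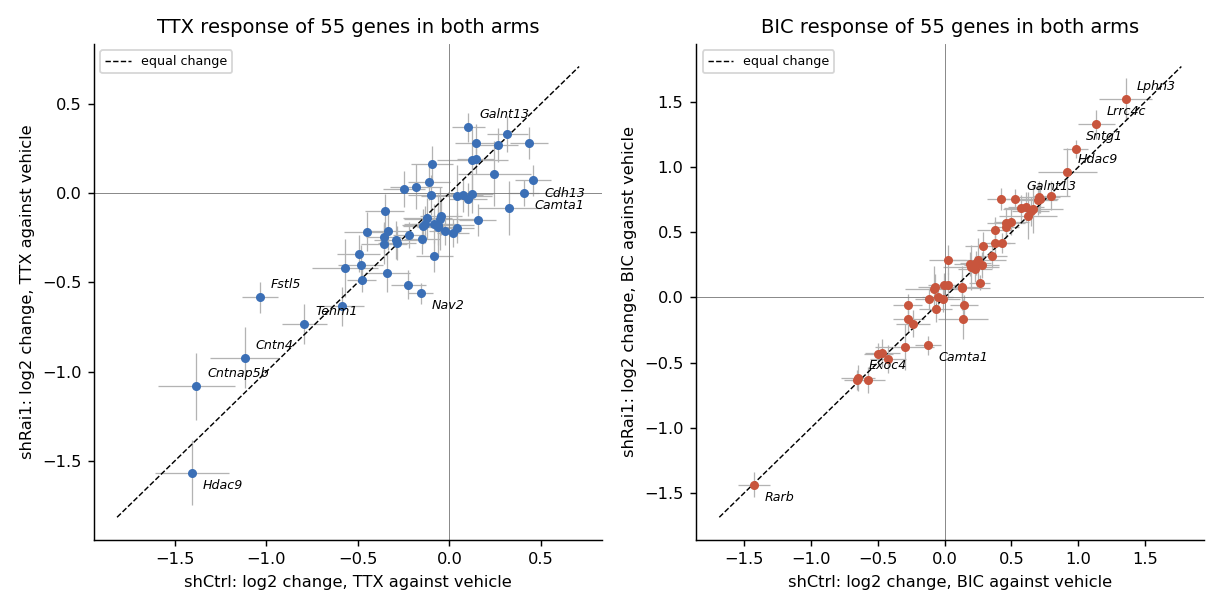
Log2 fold change in shRai1 against that in shCtrl for each of the 55 genes, TTX on the left and BIC on the right, with bars of 1 SE in both directions and a dashed line where both are equal. Points follow the line under BIC, while under TTX Nav2 (−0.16 in shCtrl, −0.56 in shRai1), Camta1 (0.40, 0.00) and Fstl5 (−1.04, −0.58) stand off it.

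The difference between the arms was tested here from the deposited changes, as shRai1 response minus shCtrl response, with a two-sided Wald test and Benjamini-Hochberg adjustment over 12333 genes. The SE of the difference takes the arms as independent, and it could not be computed for paired pools without values per library. For TTX 3 of the 55 were called, 1 higher and 2 lower, beside 0.916% and 0.608% of all genes and 0.837% and 1.62% of those of high count. In the same test the 6 expressed oligodendrocyte precursor markers had a median difference of 1.13 (5 higher, 0 lower). The 10 expressed astrocyte markers had one of 0.22 (1 higher, 0 lower), and the 14 neuron markers one of −0.01 (0 higher, 1 lower). The part of these cell types in the differences of the very long genes was not tested. The Nav2 response was lower in shRai1 by a log2 difference of −0.40 (SE 0.090, adjusted p 0.00233): it was −0.16 in shCtrl (SE 0.068, adjusted p 0.0691) and a fall of 0.56 in shRai1 (SE 0.059, adjusted p 2.18e-19). Camta1 differed by −0.40 (SE 0.112, adjusted p 0.0277), with the rise of 0.40 in shCtrl and a value of 0.00 in shRai1 (SE 0.074, adjusted p 0.997). Fstl5 differed by 0.45 (SE 0.132, adjusted p 0.0421), with falls of 1.04 in shCtrl and 0.58 in shRai1 (SE 0.087, adjusted p 5.93e-10), and this call was lost when genes down to a mean count of 10 entered the adjustment. Cdh13, which rose under TTX in shCtrl and stood at 0.07 in shRai1 (SE 0.087, adjusted p 0.598), missed the threshold for the difference, at −0.39 (SE 0.132, adjusted p 0.111).

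For BIC none of the 55 differed between the arms by this Wald test, beside 0.0324% of all genes higher and 0% lower, with 2 genes (Fstl5 and Camta1) at an unadjusted p under 0.05. Several genes were called in 1 arm only, and these are not shown to differ. Sdk1, an adhesion protein of the immunoglobulin family, fell under TTX by 0.51 in shRai1 (SE 0.083, adjusted p 1.01e-08) and was at −0.22 in shCtrl (SE 0.094, adjusted p 0.0608), with a difference of −0.29 (SE 0.125, adjusted p 0.280). Galnt13 rose under TTX by 0.37 in shRai1 (SE 0.080, adjusted p 3.8e-05) and was at 0.10 in shCtrl (SE 0.090, adjusted p 0.458), with a difference of 0.27 (SE 0.121, adjusted p 0.317).

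Between the shRNAs within one treatment, no very long gene was called in the authors' deposited tables. The background was 0.146% higher and 0.819% lower in vehicle, 0.0243% and 0.0243% in TTX, and 0.00811% and 0.00811% in BIC. At an unadjusted p under 0.05 stood 5 of the 55 in vehicle (9.09%), 7 in TTX (12.7%) and 0 in BIC by DESeq2, beside 12.3%, 4.71% and 4.22% of expressed genes and 15.0%, 8.22% and 3.94% of high-count genes. The changes were small and leaned below 0, with 42 of 55 below 0 in vehicle (median −0.05), 40 in TTX (median −0.09) and 29 in BIC (median −0.01), beside medians of −0.01 in vehicle, −0.01 in TTX and 0.01 in BIC over all 12333 genes, and −0.03, −0.05 and 0.00 over the high-count genes, of which 1182 of 2031 were below 0 in vehicle, 1559 in TTX and 999 in BIC. Averaged here over the 3 treatments, 45 of 55 were below 0 with a median of −0.04, beside 1418 of the 2031 high-count genes (median −0.03) and 223 of the 261 genes of 300 to 600 kb (median −0.05). In that average none of the 55 was called by the Wald test (0.00811% of all genes lower, 0% higher), and Rarb alone had an unadjusted p under 0.05, at −0.21 (SE 0.060, adjusted p 0.384). Genes of 100 to 300 kb and of 300 to 600 kb had medians of −0.05 and −0.05 in vehicle, so that a lean was seen in shorter classes as well.

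The genes with the smallest p in vehicle were those whose TTX response differed between arms, and both use the same vehicle libraries. For shRai1 against shCtrl in vehicle, Fstl5 stood at −0.30 (SE 0.098, adjusted p 0.147), Nav2 at 0.20 (SE 0.068, adjusted p 0.159) and Camta1 at 0.22 (SE 0.084, adjusted p 0.247). In TTX Nav2 stood at −0.20 (SE 0.059, adjusted p 0.559) and Camta1 at −0.19 (SE 0.074, adjusted p 1.00).

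The deposited FPKM gives a second view of the same libraries in the shCtrl arm, 1 pooled value per condition, and it had the same direction as the count tables in a lower share of called genes among the 55 than in the shorter classes. Of genes called under TTX, the log2 FPKM ratio (computed here after adding 0.1 FPKM) had the same direction in 94.5% under 30 kb, 89.4% at 30 to 100 kb, 89.8% at 100 to 300 kb, 92.2% at 300 to 600 kb and 82.6% of the very long genes (19 of 23). Under BIC these shares were 93.9%, 90.2%, 88.9%, 85.3% and 75% (24 of 32). Of the very long genes left out by name, 4 of 5 called under TTX (80%) and 7 of 8 called under BIC (87.5%) had the same direction. The genes that went opposite under TTX were Nkain2, Cdh13, Pard3b and Rarb, with log2 FPKM ratios of 0.32, −0.05, 0.21 and −0.02. Under BIC they were Cntnap2 (−0.26), Nkain2 (0.42), Erbb4 (−0.09), Cdh13 (−0.79), Thsd7b (0.23), Rasgrf2 (0.13), Tenm1 (−0.28) and Tmem132d (0.003). Some of these ratios, such as those of Rarb and Tmem132d, lay so near 0 that the opposite sign stands for almost no change in FPKM. No test of the difference between classes was made, and the cause was not tested.

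Cdh13 shows the largest disagreement of this kind. Its count-table change under BIC was a rise of 0.36, while its pooled FPKM was 22 in vehicle (interval 16.2 to 27.7) and 12.7 in BIC (8.86 to 16.4), a log2 ratio of −0.79, and 21.2 (15.6 to 26.7) in TTX. Sntg1, with a count-table rise of 0.98, had a pooled FPKM of 4.51 in vehicle (3.23 to 5.79) and 4.62 in BIC (3.31 to 5.93), a log2 ratio of 0.03. Lphn3, with the largest count-table rise of 1.36, went from 9.36 (6.96 to 11.8) to 10.5 FPKM (7.89 to 13.1), and Rarb, with the largest fall of 1.43, from 16.3 (12 to 20.6) to 14.0 (10.2 to 17.7). In each of these 4 genes the vehicle and BIC intervals overlapped. The size of a change in these genes therefore depends on the deposited measure.

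**Figure D4:**
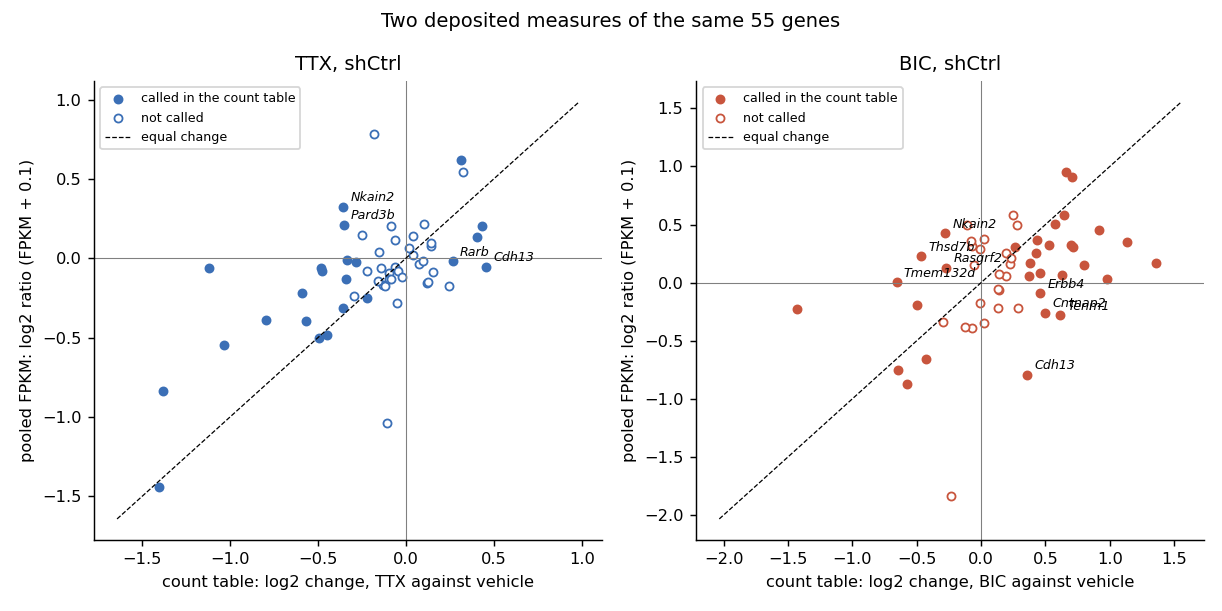
Log2 FPKM ratio (FPKM + 0.1) against the log2 change of the count tables for the 55 genes in shCtrl, TTX on the left and BIC on the right, with a dashed line where both are equal. Filled points were called in the count table, and named genes are the called ones whose FPKM ratio has the other sign, 4 under TTX and 8 under BIC.

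The scale of the measures differed by length as well. For each gene the FPKM was averaged over shCtrl vehicle, TTX and BIC and divided by the mean count per kb of locus. The median of this ratio was 0.438 for genes under 30 kb, 0.571 for genes of 300 to 600 kb and 0.705 for the very long genes. Far above that median stood Spag16 at 28.0 and Nkain3 at 10.8. Spag16 had the lowest count per kb of the 55, with 2.85 FPKM in shCtrl vehicle. Nkain3 had the highest FPKM of the 55 in shCtrl vehicle, with 4.55 counts per kb.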

How the data were processed

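Bru-seq libraries from 16 cultures in 6 groups entered, and 12 ChIP-seq samples were not analysed here. The submitters' processing notes name TopHat2 2.1.0, Bowtie2 2.2.6, DESeq2 and mm9, without their roles. Libraries were stranded and single-end with 50 base reads, per the labels' protocols. Replicates were separate pools of embryos, per the labels' design text.

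The authors' 7 comparison tables give, per the file headers, for each of 22919 genes the mean normalized count (a signal averaged over libraries), the log2 change with its error, the Wald score, and the raw and adjusted p-values. The authors' FPKM table, named as covering the full gene length, lists per condition 1 pooled FPKM and its bounds. The 3 knockdown columns of FPKM were not used as values, because their ratios followed the shRai1 response tables with r of −0.65 (TTX) and 0.27 (BIC), against 0.76 and 0.78 in the shCtrl columns. The vehicle knockdown table has no gene names. Its rows were named by their mean count where unique (20107 rows), and the log2 changes then closed to within 1e-09.

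Of 283 entries of at least 600 kb, 213 share an interval (63 distinct intervals), 1 of the 70 others was not found by name, 14 were left out by name and 55 remained; none fell under the count minimum. The values of 1 gene are not reported here by name. Symbols were matched to RefSeq annotation of GRCm38.p6 for names only (53 by symbol, 2 by synonym). Response differences and the averaged knockdown were computed here, with the SE as the root of summed squares of contrasts that share no library, which takes the arms as independent. On simulated data over 12333 genes with 200 changed by a log2 difference of 1, 91% to 100% were recovered with 12 to 18 false calls. The simulated errors were independent and drawn from the same SEs that the test used, so this checks the computation only. Recovery of smaller differences, such as the −0.40 of Nav2 or the 0.45 of Fstl5, was not simulated. Members, lists and tests were chosen with earlier results of these data known. Named were the 10 longest, the 10 largest called rises and falls per drug in shCtrl, the 5 largest elsewhere, the 5 highest and lowest FPKM, the 3 genes on each side of a threshold and up to 4 further genes per list. Genes named outside it, such as the opposite FPKM directions, were chosen after their values were seen. The plan had allowed for values per library, and edgeR was not used. The alternatives were another threshold, length and count minimum, adjustment, size of change and centring, and, added after seeing the data, the genes left out by name.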

Additional observations from a re-analysis of the deposited data

Results flagged for a closer look

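For 3 of the 55 genes the TTX response differed between the arms by the Wald test of the difference, computed here over all 12333 genes. The difference, shRai1 minus shCtrl, was −0.40 for Nav2 (SE 0.090, adjusted p 0.00233), −0.40 for Camta1 (SE 0.112, adjusted p 0.0277) and 0.45 for Fstl5 (SE 0.132, adjusted p 0.0421). In shCtrl 2 vehicle libraries entered, and no value per library was used, so that the share of 1 library in these differences was not tested. By the same test the 6 expressed oligodendrocyte precursor markers had a median difference of 1.13 (5 higher, 0 lower), and their part in the differences of these 3 genes was not tested.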

How the results depend on the processing

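The share of the 55 genes called moved by 1.5 times or more in these cases. With an absolute log2 change of at least 0.5 it was 12.7% for TTX and 32.7% for BIC in shCtrl (41.8% and 58.2% as reported), 14.5% and 41.8% in shRai1 (49.1% and 63.6%), and 0% for the TTX difference between arms (5.45%). At a threshold of 0.01 it was 29.1% for TTX in shRai1 and 1.82% for the TTX difference, which then held Nav2 alone. The TTX difference gave 3.03% at a length of at least 800 kb, where Nav2 and Fstl5 are no members, and 3.64% with adjustment over genes of mean count 10 or more, where Fstl5 was lost. Medians kept their sign in each setting run, and no called gene changed sign; centring on all genes ended 4 calls and added 5. At a threshold of 0.01, 28 single calls were lost. No paired analysis was possible because no value per library was used; leaving out each replicate and the replicate block were not run for the same reason. Depth per library is unknown, and Spag16, Agbl1 and Lama2, with means under 200, had SEs of 0.171 to 0.195 under TTX in shCtrl.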
